A study of Mus musculus with 12 samples.

Results

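The comparison sets 4 libraries titled AD_TG against 4 titled AD_B6 and asks which families of genes differ between them. The 8 libraries are part of a series of 12; the remaining 4, titled SJL_B6, enter here as the third group of the fit and as a reference level. All hold RNA from the mouse meninges, the membranes around the brain, and the series describes the cells as meningeal lymphatic endothelial cells taken from 3 to 4 mice a strain with magnetic beads. Every sample carries the strain label C57BL/6 and an age of 20 weeks, and 500 ng of total RNA went into each Lexogen QuantSeq library, in which only the end of a transcript is sequenced. The titles are the only label that separates the groups. They do not spell out AD, TG, B6 or SJL, and no promoter, transgene or allele is given in the sources used here. The TG label replaces the B6 label in the titles, so a difference that goes with one cannot be told apart from a difference that goes with the other. No label ties a library to an animal, so a p-value here reflects how these libraries spread and nothing wider.

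Genes were taken as well measured when their linear value, 2 to the power of the deposited log2 value minus 1, was at least 0.3 in all 12 libraries, which is below the value of 1 read in each of them. This held for 4950 of 23238 gene symbols (21.3%), and the families below are described over these genes. A family is a list of genes that share a protein family, a complex, a pathway or a cell type. Of 89 families, 85 had at least 3 well measured members, 73 had at least 8, and together the lists held 1526 different well measured genes. A difference is always the mean log2 value of AD_TG minus that of AD_B6, so a difference of 1 is a doubling on the scale of the linear value plus 1.

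Lymphatic endothelium of the meninges drains fluid, solutes and immune cells from the brain's surroundings towards the cervical lymph nodes. Its identity depends on the transcription factor Prox1, and its vessels carry the hyaluronan receptor Lyve1, podoplanin (Pdpn) and the receptor of the growth factor VEGF-C (Flt4). The series title concerns DSCR1, whose mouse gene is Rcan1. Its protein binds and inhibits calcineurin, the calcium-dependent phosphatase that sends NFAT transcription factors to the nucleus.

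The transcripts in the 8 libraries came from a mixture. Prox1 had no library of either group at 1 read or more. The 15 genes of the lymphatic endothelium list, of which 5 were well measured, summed to between 0.0659 and 0.0849% of the linear total in AD_B6 and between 0.0642 and 0.115% in AD_TG. The choroid plexus list summed to between 0.392 and 11.4% and between 2.06 and 8.39%, and the border macrophage list to between 0.266 and 0.641% and between 0.375 and 0.591%. T and NK cell genes stayed at or below 0.0107% in every one of the 8. Estimated reads ran from 5381698 to 9181300 across AD_B6 and from 4035498 to 9507672 across AD_TG. Genes with reads numbered 11449, 10520, 8748 and 10438 across AD_B6 against 12018, 11019, 11579 and 11530 across AD_TG, with AD_B6 replicate 3 the lowest. Over the well measured genes, the median log2 value was nearly the same everywhere, from 9.04 to 9.08 across AD_B6 and from 9.05 to 9.11 across AD_TG. Rcan1 averaged 8.79 ± 1.04 in AD_B6 and 7.75 ± 1.16 in AD_TG (SD, n = 4), and a kit that reads transcript ends need not see a transgene, so this does not check the label.

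No single gene passed. Limma called 0 of 11955 genes tested (0.0%) at an adjusted p below 0.05, and the smallest adjusted p was 0.871; limma was the one test applied. At an unadjusted p below 0.05, 106 of the 4941 well measured genes in the fit were higher in AD_TG (2.15%) and 50 were lower (1.01%). Over all genes tested the same shares were 4.34% and 1.0%. With each library scaled to the same linear total the well measured counts were 86 higher and 63 lower, and after quantile normalization 84 higher and 71 lower, so the excess of higher genes is smaller under other scalings. Without AD_B6 replicates 3 or 4 the number higher was 172 or 176, and without AD_TG replicates 1 or 4 it was 69 or 66. Without AD_B6 replicate 3, 84 were lower.

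The groups did not overlap, meaning that all 4 AD_TG values lay on one side of all 4 AD_B6 values, for 55 well measured genes on the higher side (1.11%) and 70 on the lower side (1.41%). The mean difference was above 0 for 2748 of the 4950 (55.5%), and the median difference was 0.10, beside 0.41 over all genes tested. Quantile normalization brought the median of the well measured genes to 0.01, so the size of this shift depends on the scaling. The central 90% of the differences ran from -1.40 to 1.82. Precision depended on level: the 95% interval reached 2.87 to either side at the median for genes with a mean below 8, 1.62 from 8 to 10, 0.99 from 10 to 12 and 0.62 at 12 or more. The interval lay wholly within 1 to either side of 0 for 228 genes. Most single-gene differences of a doubling were therefore not detectable at this depth and spread.

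**Figure D1:**
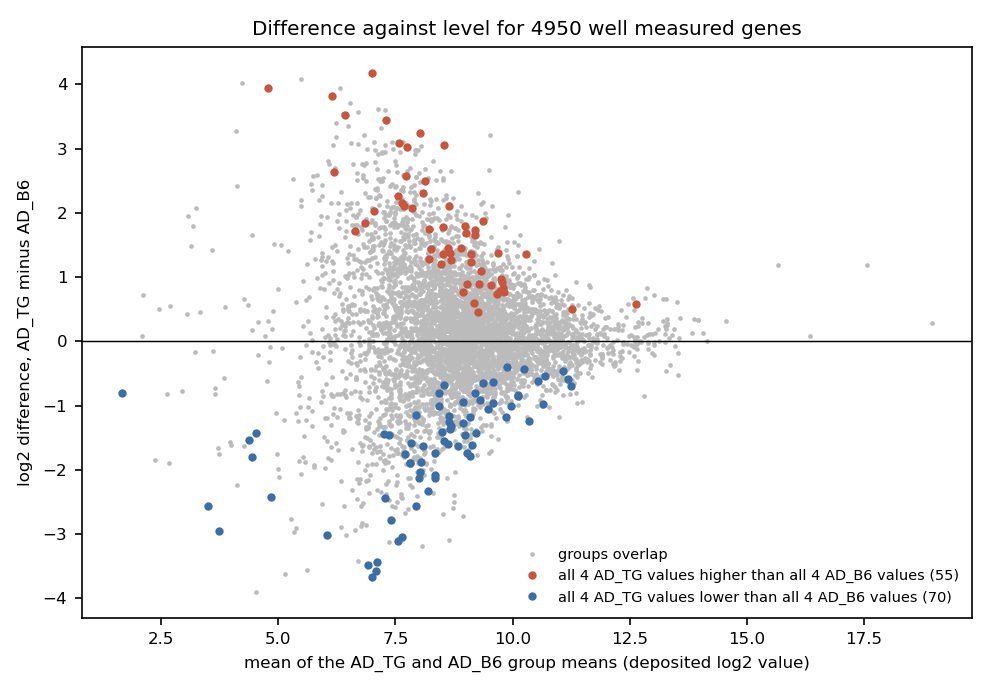
Difference between the AD_TG and AD_B6 means (vertical axis, log2) against the mean of the 2 group means (horizontal axis, deposited log2 value) for the 4950 well measured genes, 1 point a gene. The scatter narrows with level, and the 55 higher and 70 lower genes whose groups did not overlap lie at the edges of the cloud.

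Of the 73 families with at least 8 well measured members, 49 had a median difference above 0 and 24 below, and 44 lay within 0.2 of the median of all well measured genes. The highest medians were those of choroid plexus genes (1.18), chemokines and their receptors (0.72), sterol and fatty acid synthesis (0.61), Fc, Toll-like and lectin receptors (0.56) and the unfolded protein response (0.54). The lowest were those of histone genes (-0.76), erythroid genes (-0.69), the Notch pathway (-0.31), DnaJ co-chaperones (-0.27) and cullins with F-box proteins (-0.26). The mean over a family's members was compared between libraries as well. It did not overlap between the groups in 3 of the 73: histone genes on the lower side, and actin nucleation with the Arp2/3 complex and the myosins on the higher side. These library means share libraries with each other and carry no test. For single well measured genes, the shares without overlap were 1.11% on the higher side and 1.41% on the lower side. The count of 3 families is therefore a description only.

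**Figure D2:**
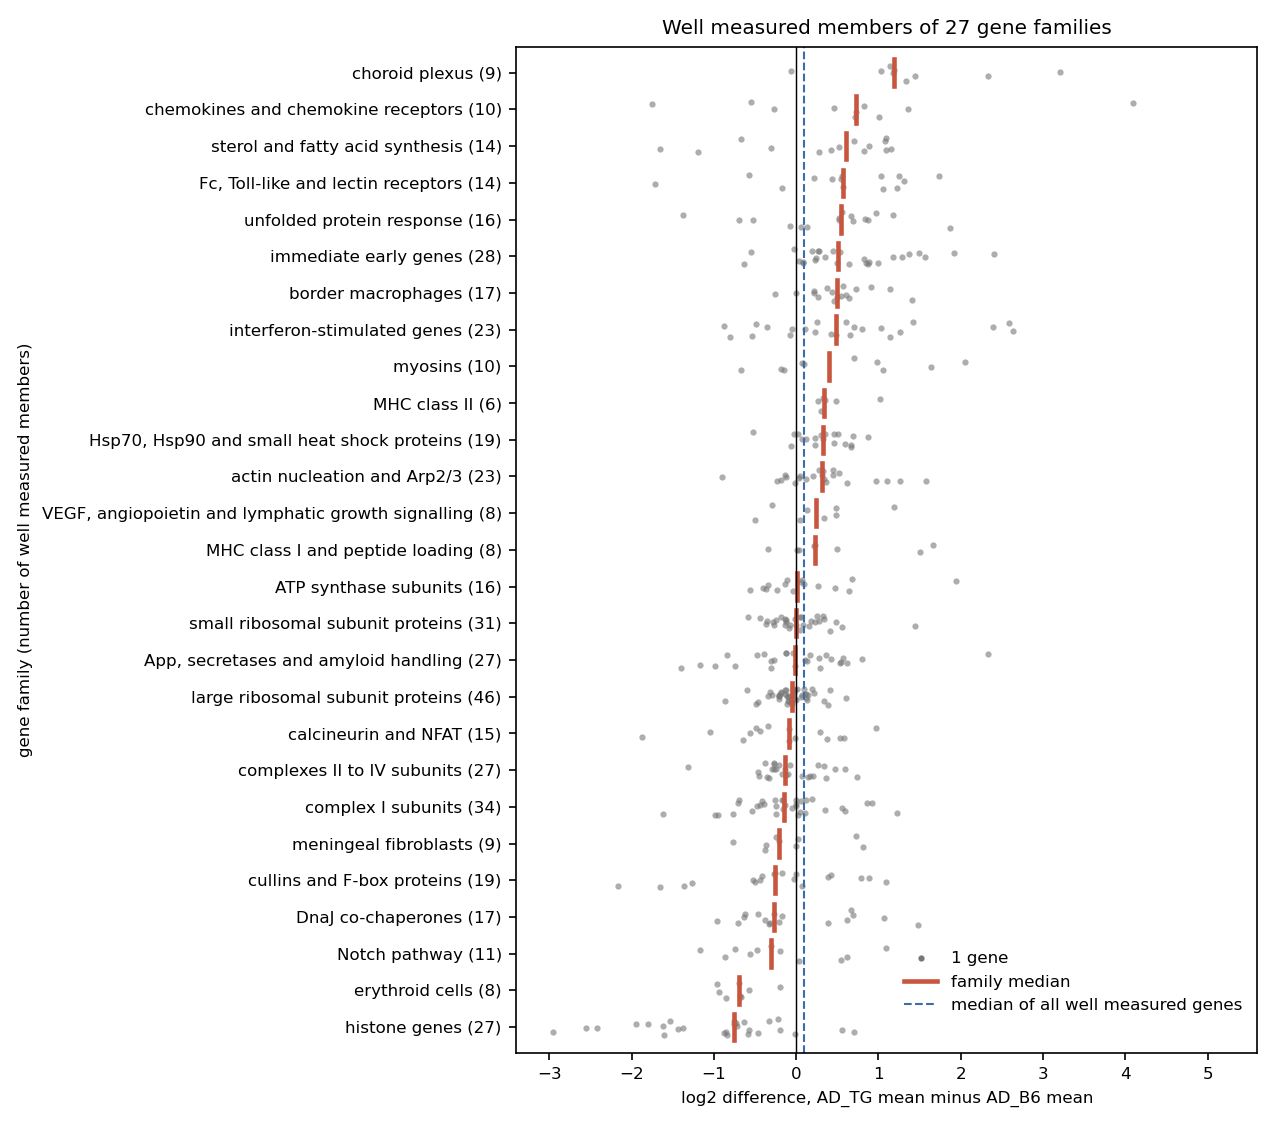
Log2 difference between AD_TG and AD_B6 (horizontal axis) for each well measured member of 27 families, with the number of members in brackets, a red bar at the family median and a dashed line at the median of all well measured genes. Histone and erythroid genes lie mostly to the left, choroid plexus genes to the right, and ribosomal proteins cluster near 0.

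Histones are the proteins on which DNA is wound, and their genes fall into replication-dependent copies, transcribed in clusters and used as cells copy their DNA, and replacement genes used throughout a cell's life. The messages of the first kind mostly end in a stem-loop and not in a poly(A) tail. How fully a kit that reads transcript ends captures messages without that tail was not tested. Of 27 well measured histone genes, 25 were lower in AD_TG and 2 were higher, with a median of -0.76. The mean over the 27 was 8.28, 7.65, 7.44 and 7.86 in AD_B6 replicates 1 to 4 and 6.78, 6.65, 6.80 and 7.07 in AD_TG. All 4 AD_TG libraries thus lay below all 4 AD_B6 libraries, and the SJL_B6 libraries, at 7.37 to 7.90, lay with AD_B6. In bulk RNA such as this, fewer cells of a type and less RNA per cell cannot be told apart.

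The groups did not overlap, with AD_TG lower, for 7 of the 27 genes, beside 1.41% of all well measured genes; none of the 27 reached an unadjusted p below 0.05 in limma. These 7 were the H2A copies Hist1h2ab, Hist1h2ad, Hist1h2af, Hist1h2ag, Hist1h2ai and Hist1h2ak and the linker histone gene H1f0. The 12 well measured Hist1h2a copies stand in 1 cluster on mouse chromosome 13, between positions 21716422 and 23751598 of GRCm38 in the GENCODE annotation. Their coding sequences are nearly the same, which is why they are shown: reads of such copies can be hard to tell apart, so their values may not be independent. Over the 11 copies with an open reading frame of 393 bases, the identity between pairs ran from 96.18 to 100% with a median of 98.22%. The first 60 coding bases of 4 copies are given from the GENCODE transcripts, with the bases that differ from Hist1h2ai in capitals.
Hist1h2ai: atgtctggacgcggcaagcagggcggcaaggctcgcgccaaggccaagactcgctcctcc
Hist1h2an: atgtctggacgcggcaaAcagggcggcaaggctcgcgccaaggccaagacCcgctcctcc
Hist1h2ao: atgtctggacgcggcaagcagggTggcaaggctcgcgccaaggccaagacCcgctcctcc
Hist1h2ak: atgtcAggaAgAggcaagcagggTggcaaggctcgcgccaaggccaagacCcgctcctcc

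All 12 Hist1h2a copies were lower in AD_TG, by a median of -1.62, and their mean stood at 6.56, 5.35, 5.97 and 5.82 across AD_B6 against 4.72, 3.88, 3.55 and 4.78 across AD_TG. The groups did not overlap. Most copies were low: leaving out Hist1h2ao and Hist1h2ap, the median copy had between 21.6 and 66.4 estimated reads in the AD_B6 libraries and between 3.0 and 23.4 in the AD_TG libraries. Because the copies may share reads, each copy's value is uncertain, and the 12 may count as few separate measurements.

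Beyond the Hist1h2a copies the pattern was weaker. The other genes were set apart by name, and their positions were not looked up. Of 14 other histone genes, with the identical entries Hist2h2aa1 and Hist2h2aa2 counted once, 12 were lower by a median of -0.52. Their mean was 9.19 ± 0.47 in AD_B6 and 8.80 ± 0.41 in AD_TG (SD, n = 4), and the groups overlapped. The 8 replacement genes among them had a median of -0.33, with 6 lower. Among these, H1f0, a linker histone of non-dividing cells, stood at 8.82, 8.98, 9.34 and 10.25 across AD_B6 against 7.57, 7.48, 8.32 and 8.52 across AD_TG. Its highest AD_TG value lay below its lowest AD_B6 value, and its difference was -1.37 (SE 0.71). H3f3a, a replacement H3 gene, differed by 0.70 (SE 0.73), whereas its partner H3f3b differed by -0.20 (SE 0.35).

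The histone library means stayed apart when each library was scaled to the same linear total, when its median was subtracted and after quantile normalization. Leaving out 1 library at a time gave medians from -1.10 without AD_B6 replicate 3 to -0.63 without AD_B6 replicate 1. The libraries also differ in how they list genes without reads: AD_B6 replicate 4 and AD_TG replicates 1 and 3 list many at a small value above 0, and the other 5 list them at 0. Within the libraries of the first kind the histone median was -1.18, and within those of the second kind -0.86. The only AD_B6 library of the first kind is replicate 4. Here and below, a median within that kind therefore sets AD_TG against that library alone.

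**Figure D3:**
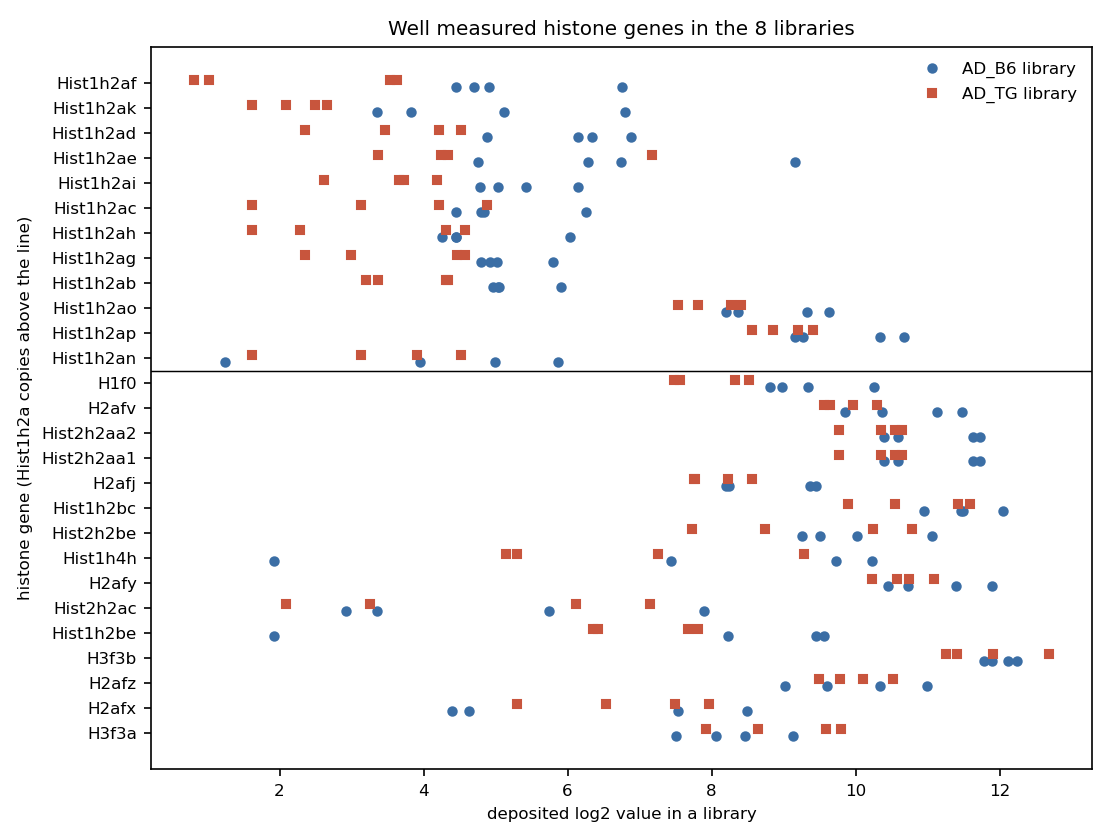
Deposited log2 value (horizontal axis) of the 27 well measured histone genes in each AD_B6 library (blue circles) and each AD_TG library (red squares), with the 12 Hist1h2a copies above the line. In the copies the red squares lie mostly to the left of the blue circles, and below the line the symbols of most genes mix.

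Actin nucleation is the making of branched actin filaments by the Arp2/3 complex and its partners, and myosins are the motors that pull on actin. Of 23 well measured actin genes, 17 were higher in AD_TG, with a median of 0.32, beside 55.5% of all well measured genes higher. The family mean was 9.72, 9.53, 9.65 and 9.52 across AD_B6 against 9.94, 9.76, 10.10 and 9.89 across AD_TG. The lowest AD_TG library stood just above the highest AD_B6 library, and the SJL_B6 libraries spread over both ranges.

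Actb, the cytoplasmic actin gene, stood at 14.54, 14.10, 14.61 and 14.31 across AD_B6 against 14.54, 14.65, 14.82 and 14.82 across AD_TG, a difference of 0.32 (SE 0.17). Tmsb4x, whose product binds actin monomers, differed by 0.62 (SE 0.33) and Cfl1, which severs filaments, by 0.53 (SE 0.34). The subunits of the Arp2/3 complex were split. Arpc1b differed by 0.45 (SE 0.37), Arpc3 by 0.44 (SE 0.53) and Arpc2 by 0.12 (SE 0.34), while Arpc5 and Actr2 differed by -0.19 (SE 1.23) and -0.13 (SE 0.95). Wdr1, which helps disassemble filaments, had the lowest value at -0.90 (SE 0.71).

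Of 10 well measured myosin genes, 7 were higher, with a median of 0.40. The library means were 9.19, 8.73, 9.23 and 9.12 across AD_B6 against 9.87, 9.28, 9.43 and 9.94 across AD_TG, again with no overlap. SJL_B6 averaged 9.30, beside 9.07 in AD_B6 and 9.63 in AD_TG. Myo1c and Myo1f, short-tailed myosins that bind membranes, differed by 2.05 (SE 1.42) and 1.64 (SE 1.07); each had 1 low AD_B6 library, at 3.09 in replicate 2 and 3.52 in replicate 4. Myh9, the heavy chain of non-muscle myosin, differed by 0.07 (SE 0.43) and the light chain gene Myl12b by -0.67 (SE 0.74). Both families came to overlap when the libraries were scaled to the same linear total and after quantile normalization. The actin median was 0.19 with the listing of genes without reads as a term in the fit, and 0.12 within the 3 libraries that list them above 0. The myosin median was -0.20 within those 3, where AD_B6 replicate 4 is the only AD_B6 library, and 0.30 within the other 5, so its direction turned. It was 0.07 without AD_B6 replicate 3 and 0.62 without AD_TG replicate 3. Over the myosin genes reaching a linear 10 in all 12 libraries it was 0.09.

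**Figure D4:**
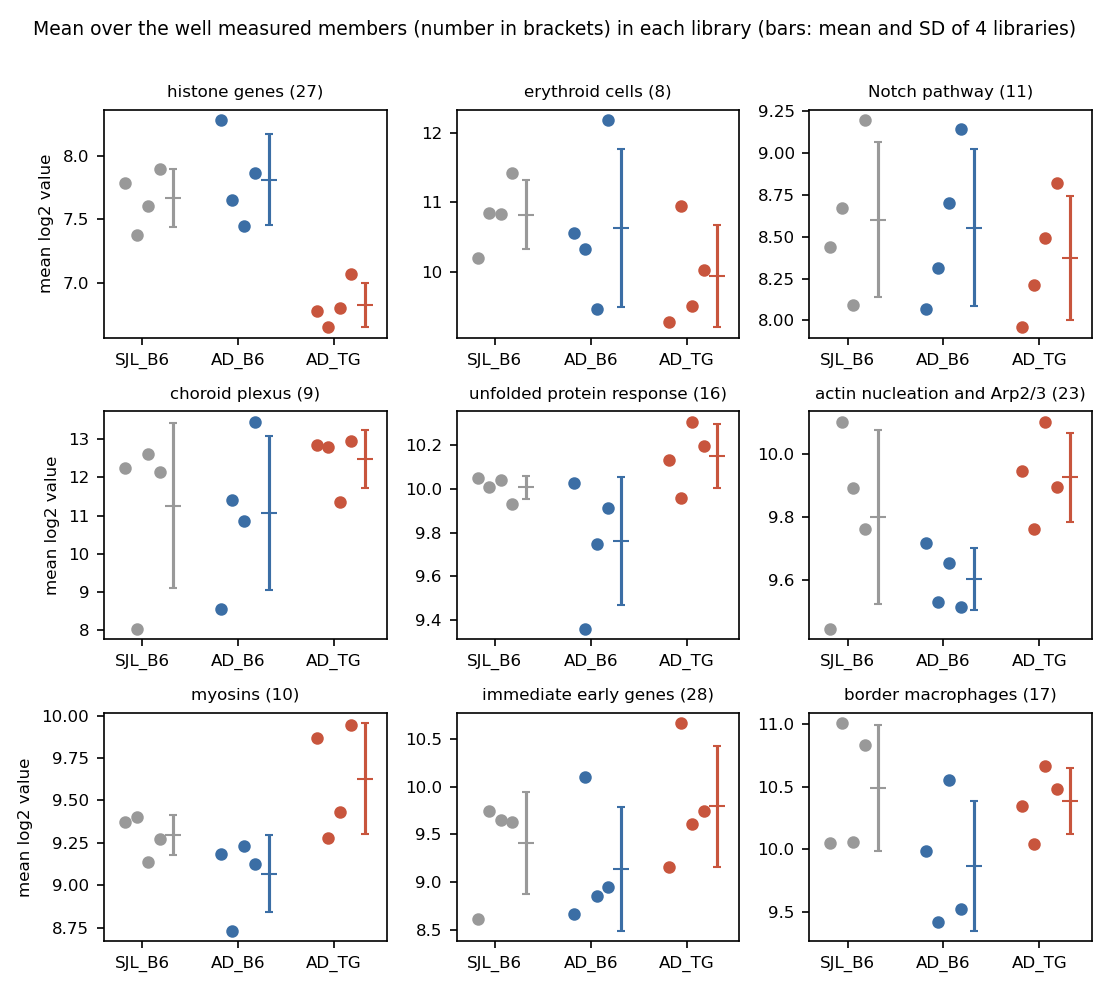
Mean log2 value over the well measured members of 9 families (number in brackets) in each SJL_B6 (grey), AD_B6 (blue) and AD_TG (red) library, with the mean and SD of 4 libraries beside the points; vertical axes differ between panels and do not start at 0. AD_TG lies apart from AD_B6 for histone genes, actin nucleation and myosins, and overlaps it in the other panels.

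The unfolded protein response raises the chaperones of the endoplasmic reticulum when unfolded proteins gather there. Its sensors act through the transcription factors Atf6, Xbp1 and Atf4, and the first of these binds the endoplasmic reticulum stress element in the promoters of chaperone genes. Of 16 well measured members, 12 were higher in AD_TG, with a median of 0.54. The family mean was 10.03, 9.36, 9.75 and 9.91 across AD_B6 against 10.13, 9.96, 10.31 and 10.20 across AD_TG. AD_TG replicate 2 stood below AD_B6 replicate 1, so the groups overlapped. The SJL_B6 mean was 10.01, beside 9.76 in AD_B6 and 10.15 in AD_TG.

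The element was looked for as CCAAT, any 9 bases and CCACG, on both strands in the 250 bases before each gene's start in RefSeq promoters of GRCm38.p6. It was present in 7 of the 14 members that matched the table, namely Calr, Canx, Dnajc3, Hsp90b1, Hspa5, Pdia6 and Syvn1. It was also present in 0.113% of all 32851 promoters. A member counted when any of its promoters held the element, whereas that share counts each promoter. Atf6 and Hyou1 were not matched. Such a match is a description of the letters, and the data here measure RNA and no binding. The promoters of Hspa5 and Hsp90b1, the members with an unadjusted p below 0.05, are shown with the element in capitals: the first at chr2:34771840-34772089 on the plus strand, the second at chr10:86705445-86705694 on the minus strand, each printed 5′ to 3′ along its gene.
Hspa5: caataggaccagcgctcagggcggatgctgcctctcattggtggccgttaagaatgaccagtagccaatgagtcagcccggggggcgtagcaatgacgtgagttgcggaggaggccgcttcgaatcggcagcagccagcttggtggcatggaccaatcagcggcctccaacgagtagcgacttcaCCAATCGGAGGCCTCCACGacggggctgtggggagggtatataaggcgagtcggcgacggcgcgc
Hsp90b1: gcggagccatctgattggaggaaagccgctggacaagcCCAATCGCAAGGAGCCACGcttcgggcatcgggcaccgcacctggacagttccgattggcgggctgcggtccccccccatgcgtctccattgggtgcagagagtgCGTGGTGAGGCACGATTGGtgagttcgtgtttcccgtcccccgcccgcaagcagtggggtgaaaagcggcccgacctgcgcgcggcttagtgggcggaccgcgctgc

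Hspa5, the gene of the chaperone BiP, stood at 12.58, 12.43, 12.53 and 13.92 across AD_B6 against 13.78, 13.78, 13.16 and 13.39 across AD_TG. Hsp90b1, the gene of GRP94, stood at 10.71, 10.84, 10.78 and 12.41 across AD_B6 against 11.97, 11.52, 12.25 and 12.49 across AD_TG. For both genes 3 AD_B6 libraries lay below all AD_TG libraries and AD_B6 replicate 4 lay among or above them. The differences were 0.67 (SE 0.31) and 0.87 (SE 0.39).

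Calr, the chaperone calreticulin, differed by 0.52 (SE 0.31), Dnajc3, a co-chaperone of BiP, by 0.69 (SE 0.45) and Syvn1, the ubiquitin ligase that clears misfolded proteins, by 1.87 (SE 0.94). In the other direction, the disulfide isomerase Pdia4 had the lowest value, at 9.98, 6.54, 8.34 and 7.0 in AD_TG and from 9.0 to 9.68 in AD_B6, a difference of -1.38 (SE 0.83). Atf6 differed by -0.70 (SE 0.98), Xbp1 by 1.18 (SE 1.09) and Atf4 by 0.52 (SE 0.63). The family median was 0.27 without AD_B6 replicate 2. Within the 5 libraries that list genes without reads at 0 it was 0.55, and within the other 3 it was 0.01.

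**Figure D5:**
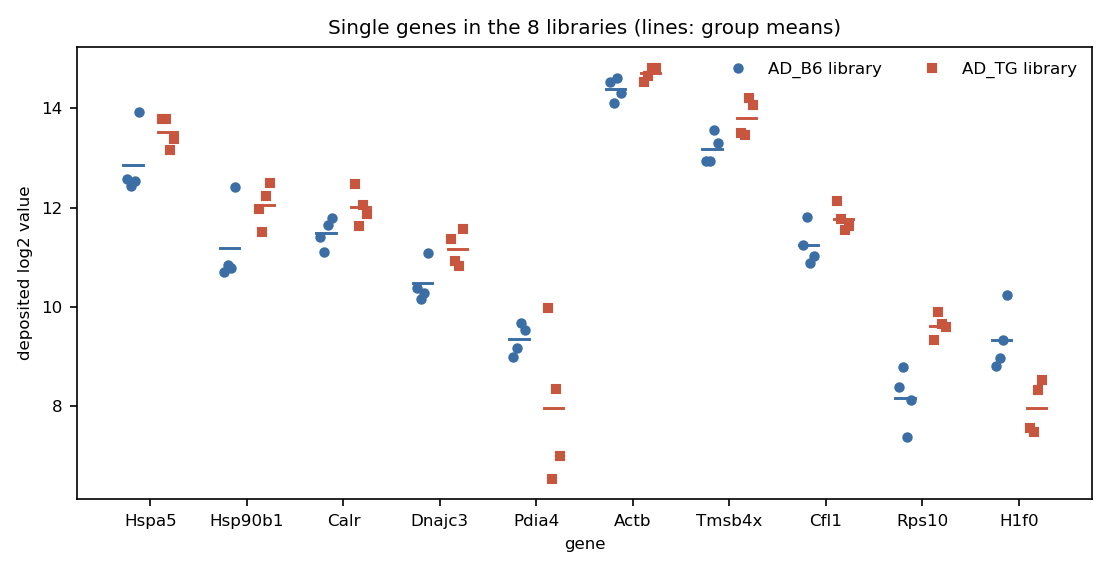
Deposited log2 value (vertical axis, not starting at 0) of 10 genes in each AD_B6 library (blue circles) and AD_TG library (red squares), with lines at the group means. AD_B6 replicate 4 stands with or above the AD_TG libraries for Hspa5 and Hsp90b1, while Rps10 and H1f0 have no overlap between groups.

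The Hsp70 and Hsp90 chaperones of the cytosol, mitochondria and endoplasmic reticulum fold proteins with the help of ATP, and DnaJ co-chaperones hand substrates to Hsp70. Of 19 well measured members of the Hsp70, Hsp90 and small heat shock families, 16 were higher in AD_TG, with a median of 0.33. Hspa5 and Hsp90b1 belong here too. The cytosolic chaperones differed less: Hsp90ab1 by 0.13 (SE 0.25), Hsp90aa1 by 0.23 (SE 0.34) and Hspa8 by 0.46 (SE 0.41). Hspbp1, which releases nucleotide from Hsp70, differed by -0.53 (SE 0.77). Without AD_B6 replicate 3 the median was -0.01, and within the libraries that list genes without reads at 0 or above it was 0.66 and -0.35.

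The 17 DnaJ genes leaned the other way, with 11 lower and a median of -0.27. Dnajc10, a reductase of the endoplasmic reticulum, differed by -0.97 (SE 0.87), and Dnajc7 by 1.06 (SE 0.53). The DnaJ family mean was 8.89 ± 0.32 in AD_B6 and 8.89 ± 0.18 in AD_TG (SD, n = 4), so the means were nearly equal while the median was below 0, and without AD_TG replicate 1 the median was -0.01.

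Cullins are the scaffolds of ubiquitin ligases and F-box proteins choose their targets. Of 19 members, 13 were lower in AD_TG, with a median of -0.26. Cul4a, the scaffold of a ligase that works in DNA repair, stood at 10.19, 7.78, 9.65 and 9.80 across AD_B6 against 8.22, 7.13, 8.04 and 7.44 across AD_TG, a difference of -1.65 (SE 0.82). Only AD_B6 replicate 2 lay within the AD_TG range. Fbxl12 differed by 0.79 (SE 0.64). AD_TG replicate 3 had the lowest family mean, 7.46 beside 8.32 to 8.4 in the other AD_TG libraries, and the median without it was -0.04. Within the libraries that list genes without reads at 0 the median was 0.17, and within the others it was -0.88.

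Choroid plexus epithelium makes cerebrospinal fluid, and its family mean spread more widely over the 12 libraries than that of any other family in the plot of family differences. Of 9 well measured members, 8 were higher in AD_TG, with a median of 1.18. Its members averaged 8.55, 11.41, 10.85 and 13.46 across AD_B6 against 12.84, 12.79, 11.35 and 12.97 across AD_TG. AD_B6 replicate 1 was far below the rest and AD_B6 replicate 4 above all AD_TG libraries. The SJL_B6 mean was 11.26, beside 11.07 in AD_B6 and 12.49 in AD_TG. Car12, a carbonic anhydrase, stood at 2.25, 9.33, 8.25 and 11.80 across AD_B6 against 11.48, 11.72, 9.45 and 11.82 across AD_TG, a difference of 3.21 (SE 1.30). Ttr, the carrier of thyroid hormone, differed by 1.18 (SE 0.87), and the water channel gene Aqp1 by 1.33 (SE 0.62). Otx2, the transcription factor of this epithelium, differed by -0.06 (SE 0.41). The family median was 0.17 without AD_B6 replicate 1 and 1.95 without AD_B6 replicate 4, and it was 2.47 within the libraries that list genes without reads at 0 and -1.58 within the others.

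Erythroid genes report blood left in the tissue. All 8 well measured members were lower in AD_TG, with a median of -0.69. Hba-a1, an alpha globin gene, stood at 13.17, 12.94, 11.69 and 15.09 across AD_B6 against 11.84, 13.98, 11.65 and 11.99 across AD_TG, a difference of -0.85 (SE 0.49). AD_B6 replicate 4 was the highest library and AD_TG replicate 2 the next. The median was -0.10 without AD_B6 replicate 4 and -1.31 without AD_TG replicate 2, and within the 2 kinds of listing it was 0.42 and -3.50. Within the alpha and within the beta kind, the 6 globin genes resemble each other closely, so reads may be split within each kind.

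Border macrophages live along the meninges and their vessels. Of 17 well measured members, 16 were higher in AD_TG, with a median of 0.50. The family mean was 9.98, 9.42, 10.55 and 9.52 across AD_B6 against 10.34, 10.04, 10.66 and 10.48 across AD_TG. AD_B6 replicate 3 stood above 3 of the 4 AD_TG libraries, so the groups overlapped. Group means were 9.87 in AD_B6, 10.38 in AD_TG and 10.49 in SJL_B6. C1qb, a chain of complement C1q, stood at 11.02, 9.80, 11.83 and 10.21 across AD_B6 against 11.62, 10.99, 11.28 and 11.54 across AD_TG, a difference of 0.64 (SE 0.41). Adgre1, the gene of F4/80, differed by -0.26 (SE 0.82), and its AD_TG replicate 4 stood at 6.25 beside 8.74 to 10.19 in the other AD_TG libraries. The family median ran from 0.29 without AD_B6 replicate 2 to 0.77 without AD_B6 replicate 3.

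Immune receptor and antigen presentation families stood on the same side as the macrophage list, whose part in them was not tested. The lists are not fully separate, since Cx3cr1 stands in both the macrophage and the chemokine list. Of 14 Fc, Toll-like and lectin receptors, which bind antibodies, microbial products and sugars, 11 were higher, with a median of 0.56. Their means were 7.90 in AD_B6, 8.44 in AD_TG and 8.69 in SJL_B6. Fcgrt, the neonatal Fc receptor, stood at 9.52, 4.51, 9.19 and 8.64 across AD_B6 against 9.92, 9.16, 9.82 and 9.92 across AD_TG, a difference of 1.74 (SE 0.85). AD_B6 replicate 2 was far below the rest, and the family median without it was 0.34. Clec10a, a galactose-binding lectin, differed by 1.02 (SE 0.52) and Tlr2, a receptor of bacterial lipoproteins, by -1.72 (SE 1.55).

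Of 10 chemokines and chemokine receptors, 7 were higher, with a median of 0.72. Family means were 7.64 in AD_B6, 8.30 in AD_TG and 7.85 in SJL_B6. Cx3cl1, the fractalkine gene, stood at 7.20, 7.75, 9.16 and 8.70 across AD_B6 against 8.97, 9.51, 9.91 and 9.84 across AD_TG, a difference of 1.35 (SE 0.74), and its receptor gene Cx3cr1 differed by 0.73 (SE 0.60). AD_B6 replicate 3 alone lay within the AD_TG range of Cx3cl1. Ccl9 had the widest difference, 4.09 (SE 2.08), with 3 AD_B6 libraries between 1.22 and 2.37 and the remaining one at 8.61. Cxcr2, the neutrophil receptor, differed by -1.76 (SE 2.08) at low values. The family median was 0.29 without AD_B6 replicate 4, and 0.09 within the libraries that list genes without reads at 0.

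All 6 well measured MHC class II genes, which present antigen to helper T cells, were higher, with a median of 0.34. Class II means were 11.24 in AD_B6, 11.70 in AD_TG and 12.30 in SJL_B6. Cd74, the invariant chain, stood at 12.64, 12.05, 12.60 and 12.10 across AD_B6 against 12.78, 13.01, 12.88 and 12.63 across AD_TG. Only the lowest AD_TG library, at 12.63, fell below the highest AD_B6 library, and the difference was 0.48 (SE 0.31). The class II median was 0.21 without AD_B6 replicate 4, and 0.04 and 0.81 within the libraries that list genes without reads at 0 and above it. Of 8 MHC class I and peptide loading genes, 7 were higher, with a median of 0.22 that became -0.01 after quantile normalization. Class I means were 9.02 in AD_B6, 9.49 in AD_TG and 9.84 in SJL_B6. H2-D1 differed by 0.49 (SE 0.36) and Tap2, a subunit of the peptide transporter, by -0.34 (SE 0.77).

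Of 23 interferon-stimulated genes, 16 were higher, with a median of 0.48. Averaged over its members, the family stood at 7.68, 8.0, 8.04 and 8.37 across AD_B6 against 8.75, 8.12, 8.72 and 8.84 across AD_TG. AD_TG replicate 2 lay within the AD_B6 range and the other 3 above it. The SJL_B6 mean was 8.49, beside 8.02 in AD_B6 and 8.61 in AD_TG. Gbp7, a guanylate-binding protein gene, was the 1 member of 23 whose groups did not overlap, beside 1.11% of all well measured genes on the higher side. It stood at 6.37, 7.47, 4.63 and 7.26 across AD_B6 against 8.86, 8.12, 9.30 and 9.77 across AD_TG, a difference of 2.58 (SE 0.97). The immunoproteasome genes Psme2 and Psmb8 differed by 2.63 (SE 1.49) and 2.39 (SE 1.42), with low values in AD_B6 replicates 1 and 4 respectively. Irf8 and Irf1, regulators of the response, differed by -0.88 (SE 0.79) and -0.53 (SE 0.71). The family median was 0.16 after quantile normalization, 0.32 without AD_TG replicate 1 and 0.84 without AD_B6 replicate 4.

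Immediate early genes are switched on within minutes of a stimulus, also by the handling of tissue. Of 28 well measured members, 25 were higher in AD_TG, with a median of 0.51. The family mean was 8.66, 10.10, 8.85 and 8.95 across AD_B6 against 9.15, 10.66, 9.61 and 9.75 across AD_TG. SJL_B6 averaged 9.41, beside 9.14 in AD_B6 and 9.79 in AD_TG. Replicate 2 was the highest library of AD_B6 and of AD_TG, and AD_B6 replicate 2 stood above 3 AD_TG libraries. Egr1 stood at 12.84 and 13.82 in these 2 libraries and between 9.47 and 11.40 in the other 6.

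Fosl2, an AP-1 subunit, stood at 8.82, 9.99, 7.21 and 7.89 across AD_B6 against 9.13, 10.63, 10.48 and 11.33 across AD_TG, a difference of 1.91 (SE 0.69). Klf6 differed by 1.5 (SE 0.65), Zfp36, which destabilises cytokine messages, by 1.37 (SE 0.87) and Fos by 0.26 (SE 0.70). Gadd45g, a growth arrest gene, differed by -0.55 (SE 0.61). The cAMP response element TGACGTCA stood in the same stretch before the start in 3 of the 24 members found in the promoter table, Btg2, Dusp1 and Ppp1r15a, and in 1.55% of all promoters. Here too members were counted by gene and the share by promoter. The family median was 0.25 without AD_TG replicate 2 and 0.83 without AD_B6 replicate 2.

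Sterol and fatty acid synthesis is run by the SREBP transcription factors. Of 14 well measured genes, 10 were higher, with a median of 0.61. Family means were 8.81 in AD_B6, 9.11 in AD_TG and 9.15 in SJL_B6. The desaturase gene Scd2 stood at 8.57, 8.45, 8.19 and 11.42 across AD_B6 against 10.40, 9.47, 10.33 and 11.04 across AD_TG, a difference of 1.15 (SE 0.75). Again 3 AD_B6 libraries lay below all AD_TG libraries, and here AD_B6 replicate 4 lay above them. The 2 SREBP genes differed in sign: Srebf1 differed by 1.08 (SE 0.98) and Srebf2 by -1.65 (SE 0.91). Within the libraries that list genes without reads at 0 or above it, the family median was 0.94 and 0.08.

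The Notch pathway passes signals between touching cells through receptors that are cut by ADAM proteases and gamma-secretase. Of 11 well measured members, 7 were lower, with a median of -0.31, and the library means overlapped. The receptors Notch1 and Notch2 differed by -0.86 (SE 1.78) and -0.19 (SE 0.55), the nuclear effector Rbpj by 1.09 (SE 0.86) and the target gene Hes1 by 0.03 (SE 0.45). The gamma-secretase subunits differed in sign, with Ncstn at -1.17 (SE 1.65), Psenen at 0.55 (SE 0.82) and Aph1a at 0.62 (SE 0.40). The median ran from -0.59 without AD_B6 replicate 1 to -0.06 without AD_B6 replicate 4.

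Calcineurin, its regulators and the NFAT factors are the pathway in which Rcan1 acts. Of 15 well measured members, 10 were lower in AD_TG, with a median of -0.09. The catalytic subunit Ppp3ca differed by -0.01 (SE 0.50), the gamma isoform gene Ppp3cc by -1.87 (SE 2.23) at low values, and the regulatory subunit Ppp3r1 by -0.08 (SE 0.44). Nfatc2 and Nfatc3 differed by 0.97 (SE 1.59) and 0.53 (SE 1.06), and Nfat5 by -0.57 (SE 0.71). Without AD_TG replicate 2 the family median was -0.28.

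App, the secretases that cut its product and the genes that handle amyloid gave 13 higher and 14 lower members of 27, with a median of -0.01. App stood at 12.88, 13.27, 12.80 and 13.13 across AD_B6 against 12.99, 12.85, 12.98 and 13.21 across AD_TG. The difference was -0.01, with a 95% interval of -0.50 to 0.48. Apoe, the lipid carrier, differed by 0.13 (SE 0.22), Clu by -0.12 (SE 0.32) and the clearance receptor Lrp1 by -0.04 (SE 0.29). Aplp1, a relative of App, differed by -0.99 (SE 0.60), and the degrading enzyme Ide by 2.33 (SE 1.60) with 1 AD_B6 library at 0.95. With 1 library left out the median ran from -0.06 to 0.09. The library means were 9.94 ± 0.14 in AD_B6 and 9.94 ± 0.09 in AD_TG (SD, n = 4).

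Vessel and stromal families showed small or divided values. Of 8 well measured genes of VEGF, angiopoietin and lymphatic growth signalling, 6 were higher, with a median of 0.24: Hif1a, the hypoxia factor, differed by 1.19 (SE 0.87), the VEGF receptor gene Kdr by 0.04 (SE 0.84) and Nrp1, a co-receptor, by -0.29 (SE 0.37). With 1 library left out this median ran from 0.11 without AD_TG replicate 1 to 0.42 without AD_B6 replicate 3. The 5 well measured lymphatic endothelium genes were Maf at 0.47 (SE 0.47), Nrp2 at 0.34 (SE 0.66), Foxc2 at 0.14 (SE 1.0), Nr2f2 at -0.01 (SE 0.51) and Pdpn at -0.38 (SE 0.69). Lyve1 stood at 8.53, 8.80, 0 and 9.24 in AD_B6 and between 7.47 and 8.84 in AD_TG. Flt4 and Pecam1, a junction protein of endothelium, lacked reads in some libraries of both groups. Of 9 meningeal fibroblast genes, 6 were lower, with a median of -0.21 that became 0.34 without AD_B6 replicate 3 and also changed sign without AD_TG replicate 2.

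Ribosomal protein genes, among the largest families described, had medians near 0. Of 46 large ribosomal subunit proteins, 31 were lower with a median of -0.06, and of 31 small subunit proteins, 16 were lower with a median of -0.01. With 1 library left out, the first median ran from -0.17 to 0.00 and the second from -0.13 to 0.13. The large subunit mean was 9.99 ± 0.07 in AD_B6 and 9.93 ± 0.23 in AD_TG (SD, n = 4). Rps10, a protein of the small subunit, stood apart from its family at 8.4, 8.79, 7.38 and 8.13 across AD_B6 against 9.33, 9.90, 9.66 and 9.60 across AD_TG, with no overlap and a difference of 1.45 (SE 0.64). The SJL_B6 mean of Rps10 was 9.38, beside 8.17 in AD_B6 and 9.62 in AD_TG. Rpl8 and Rps28 differed by -0.60 (SE 0.38) and -0.58 (SE 0.46).

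The respiratory chain gave medians of -0.15 for complex I (20 of 34 lower), -0.14 for complexes II to IV (17 of 27 lower) and 0.01 for ATP synthase (8 of 16 lower). The ATP synthase median became -0.06 when the libraries were scaled to the same linear total, and with 1 library left out it ran from -0.16 to 0.17. Without AD_B6 replicate 4 the complex I median was 0.01 and that of complexes II to IV -0.01. AD_B6 replicate 3 had the lowest complex I mean, 9.14 beside 10.07 to 10.22 in the other AD_B6 libraries, and it also had the fewest genes with reads, whose part in this value was not tested. Within the libraries that list genes without reads at 0 the medians were 0.10 for complex I, 0.37 for complexes II to IV and 0.34 for ATP synthase, and within the others they were -0.72, -0.79 and -0.61. Ndufs7 differed by -1.62 (SE 0.81), Ndufb7 by 1.22 (SE 0.63) and Uqcrc1, a core subunit of complex III, by -1.31 (SE 0.68).

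Among all well measured genes whose groups did not overlap, those with the smallest unadjusted p did not form one family. On the higher side they were Nrxn2, a synaptic adhesion gene, Pwwp2a, a reader of the histone variant H2A.Z, the cohesin subunit Rad21, Paxbp1, the ketone body enzyme Oxct1, Ubtf, which drives transcription of ribosomal RNA genes, the mitochondrial protease Spg7, Gbp7, Zfc3h1 and Esf1. Their differences ran from 1.35 to 4.18. Oxct1 stood at 9.31, 8.59, 10.38 and 10.18 across AD_B6 against 10.89, 10.94, 10.53 and 11.50 across AD_TG, and its difference of 1.35 had an SE of 0.50. The size of some others was raised by a single low AD_B6 library, such as replicate 3 at 0.75 for Ubtf and 5.38 for Rad21; the other AD_B6 libraries of both genes also lay below all AD_TG libraries.

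On the lower side they were Hprt, an enzyme of purine salvage, Atl2, an atlastin that shapes the endoplasmic reticulum, the G protein subunit Gng2, Smn1, which assembles splicing particles, Rabl6, Pcbd1, which recycles a pterin cofactor, the calcium-binding protein S100a1, Fam175b, Marf1 and Lman1, a cargo receptor between endoplasmic reticulum and Golgi. Their differences ran from -3.68 to -0.97. Lman1 stood at 11.05, 11.54, 11.18 and 10.79 across AD_B6 against 9.95, 10.25, 10.47 and 10.02 across AD_TG, a difference of -0.97 (SE 0.40). Hprt stood at 7.64, 9.81, 8.91 and 8.95 across AD_B6 against 4.34, 4.65, 6.87 and 5.69 across AD_TG, a difference of -3.44 (SE 1.02). In both genes every AD_TG library lay below every AD_B6 library, and neither passed the adjustment in limma.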

How the data were processed

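The authors deposited 1 table per library with log2 values per gene symbol, log2(x + 1) of scaled amounts; the scaling method is not given in the sources used here. The submitters' processing notes list Bowtie2, bedtools and hg19 without versions. Since hg19 is a human build and the symbols are murine, no coordinates of the files were used. Each file held 23282 entries; where a symbol was repeated (35 symbols) the one of highest mean stayed. Reads were estimated from the linear step between low values. The 11955 genes reaching a linear 10 in 4 or more libraries were fitted with limma 3.58.1 in R 4.3.3 (lmFit, eBayes with trend) over all 12 libraries, two-sided, with Benjamini-Hochberg adjustment; the fit was tested on simulated data.

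The members and lists were chosen with earlier results of these data known. Families described are the 5 highest and 5 lowest medians among those with at least 8 well measured members, those whose library means did not overlap, and families tied to the labels, tissue and cell types. Named by rule were the label genes, the member per family and direction with the smallest p, and 10 genes per direction whose groups did not overlap; other members were named after their values were seen. Of the genes so named, 1 is not reported here. Promoter letters are from RefSeq and transcripts from GENCODE. Alternatives changed scaling, pseudocount, filter, weights, block and libraries; a term for the listing of genes without reads was added after seeing the data.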

Additional observations from a re-analysis of the deposited data

Results flagged for a closer look

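In groups of 4 libraries, a value was listed when its gap to the nearest other value took a larger part of the group's range than Dixon's critical value. Of 206 groups checked, 16 were listed, and chance lists about 1 in 20. The families were the choroid plexus mean in AD_TG replicate 3 (11.35, the lowest of its group, which reached 12.97), cullins and F-box proteins in AD_TG replicate 3 (7.461), interferon-stimulated genes in AD_TG replicate 2 (8.12), complex I in AD_B6 replicate 3 (9.141) and ATP synthase in AD_B6 replicate 3 (9.651).

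Among genes, AD_B6 replicate 3 stood apart for Lyve1 (listed at 0), Rad21 (5.377) and Ubtf (0.747), and AD_B6 replicate 4 for Hsp90b1 (12.41) and Scd2 (11.42). AD_B6 replicate 1 stood apart for Flt4 (7.327, the others below 1 read) and AD_B6 replicate 2 for Ccl9 (8.613). In AD_TG, replicate 2 stood apart for Fcgrt (9.157) and Hba-a1 (13.98) and replicate 3 for Akap5 (11.4) and Car12 (9.446).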

How the results depend on the processing

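Under 22 alternative settings, the number of genes called stayed 0, with adjusted p-values no lower than 0.060 without AD_B6 replicate 1. The median difference of the well measured genes moved from 0.10 to 0.030 with the same linear total, 0.0086 after quantile normalization and 0.056 over genes reaching a linear 10 in all 12 libraries, and ran from 0.037 to 0.121 with 1 library left out. The number higher ran from 66 to 176 with 1 library left out and the number lower from 35 to 84.

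The labels do not pair the libraries by replicate number. Same-number correlations of deviations were -0.006, 0.086, 0.021 and 0.013, and those of different numbers ran from -0.074 to 0.036. Means of immediate early, Notch, complex I, complexes II to IV and ATP synthase genes ranked the replicates in the same order in both groups. Collagen chains, a family not described above, did so too. Other families, among them histone genes and choroid plexus, did not. Whether same-numbered libraries were handled together was not tested. With the replicate block, limma called 0 genes, with 124 higher and 59 lower at an unadjusted p below 0.05 and a lowest adjusted p of 0.842.

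The alternatives were run for the 75 fitted genes that the naming rule chose, not for the other members named. Of 1647 such values, 9 changed sign. Otx2 became 0.12 without AD_B6 replicate 1, 0.14 without AD_TG replicate 3 and 0.016 with the listing term. App became 0.070, 0.023 and 0.038 without AD_B6 replicates 2 and 4 and AD_TG replicate 2. Lyve1 became -0.67 and Atp5o -0.024 without AD_B6 replicate 3, and Adgre1 0.53 without AD_TG replicate 4. With 1 library left out, the lowest or highest values were -0.26 for Otx2, -0.087 for App, 2.41 for Lyve1, 2.95 for Atp5o and -0.79 for Adgre1. The causes were not tested. Of 622 alternative family medians, 10 moved by more than the spread between libraries. That spread is the SD of the family's library means, and leaving out 1 of 4 libraries seldom shifts a median that far. The count therefore does not show that the medians were stable. The choroid plexus median, for example, ran from 0.17 to 1.95 with 1 library left out. The intervals were widest for genes of low level, and the low read numbers of most Hist1h2a copies limit what their values show.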
